A study of Mus musculus with 6 samples.

Results

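Mitochondrial ribosomal proteins are the nuclear-encoded proteins of the ribosome inside mitochondria. Their genes were taken from the deposited count table as the protein-coding rows whose names begin with Mrpl or Mrps followed by a digit. This gave 78 of the 54532 genes in the table, 49 named for the large subunit (Mrpl) and 29 named for the small subunit (Mrps). RNA-seq was run on 6 samples of MLE12, an immortalised mouse lung epithelial cell line labelled with the strain C57BL/6J, cultured in HITES medium. The 3 control samples (Ctrl_sh1, Ctrl_sh2 and Ctrl_sh3) received empty lentiviral vectors at a multiplicity of infection of 50. The 3 knockdown samples (SI_sh1, SI_sh2 and SI_sh3) received 2 lentiviruses, each at a multiplicity of infection of 50, that silence Idh3α, the catalytic subunit of NAD-dependent isocitrate dehydrogenase, and Slc25a1, the mitochondrial citrate carrier. Both groups received the transduction enhancer HitransG P, a change of medium at 16 h and 80 h of further culture. All samples came from this 1 line, and separate cultures are not stated, so the p-values measure the spread between these samples, which may be technical.

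The mitochondrial ribosome translates the few proteins that mitochondrial DNA encodes, all of them subunits of the respiratory chain or of ATP synthase. Its rRNAs are made in mitochondria, while its proteins are made in the cytosol, imported and assembled in a fixed number per ribosome. Some of these proteins have bacterial counterparts and others were acquired by the mitochondrial ribosome alone. The names do not always give the subunit, since Mrps18a and Mrps30 sit in the large subunit and Mrps36 belongs to the 2-oxoglutarate dehydrogenase complex.

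Promoters are shown for the members with which the results below are mainly told. RefSeq promoters of 300 bases on GRCm38.p6, running 5′ to 3′ on the gene's strand from 250 bases before to 50 after the start of the gene, matched 69 of the 78 members. Capitals mark, on either strand, the letters CCGGAAG (a core bound by ETS factors such as GABP), GCGCATGC (a core bound by NRF1) and AAGATGGCG (a core bound by YY1), and overlapping matches run together. The first sequence belongs to Mrps18c, the member with the lowest fold change over all 6 libraries, at chr5:100798509-100798808 on the plus strand. Mrpl32 and Mrpl42 were also among the 6 lowest, at chr13:14612988-14613287 and chr10:95501900-95502199, both on the minus strand. Mrps18b (chr17:35916391-35916690, minus strand) and Mrps6 (chr16:92058086-92058385, plus strand) were among the 6 highest, and the Mrps6 window held none of the 3 cores.
Mrps18c: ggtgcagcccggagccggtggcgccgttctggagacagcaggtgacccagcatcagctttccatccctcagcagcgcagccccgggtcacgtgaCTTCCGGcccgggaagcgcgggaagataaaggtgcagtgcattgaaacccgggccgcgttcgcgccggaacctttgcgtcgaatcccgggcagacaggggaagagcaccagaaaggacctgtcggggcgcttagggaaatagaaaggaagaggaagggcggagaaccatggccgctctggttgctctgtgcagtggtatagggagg
Mrpl32: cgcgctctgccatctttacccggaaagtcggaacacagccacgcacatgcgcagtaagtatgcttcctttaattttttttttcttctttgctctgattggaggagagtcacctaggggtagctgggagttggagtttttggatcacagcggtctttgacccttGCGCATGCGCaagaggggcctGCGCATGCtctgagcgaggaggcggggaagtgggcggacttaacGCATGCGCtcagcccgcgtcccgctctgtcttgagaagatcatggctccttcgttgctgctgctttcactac
Mrpl42: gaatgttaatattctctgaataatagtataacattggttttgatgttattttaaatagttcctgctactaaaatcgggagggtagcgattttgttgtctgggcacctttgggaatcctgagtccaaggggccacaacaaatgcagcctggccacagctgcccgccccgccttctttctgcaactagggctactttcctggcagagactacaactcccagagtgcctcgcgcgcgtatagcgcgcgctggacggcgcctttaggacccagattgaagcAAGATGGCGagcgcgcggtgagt
Mrps18b: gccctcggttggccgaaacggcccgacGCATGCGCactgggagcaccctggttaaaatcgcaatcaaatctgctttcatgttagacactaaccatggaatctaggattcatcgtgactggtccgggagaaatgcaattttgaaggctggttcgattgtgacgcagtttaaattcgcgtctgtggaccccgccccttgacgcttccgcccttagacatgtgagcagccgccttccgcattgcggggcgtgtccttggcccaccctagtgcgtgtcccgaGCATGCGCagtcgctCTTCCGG
Mrps6: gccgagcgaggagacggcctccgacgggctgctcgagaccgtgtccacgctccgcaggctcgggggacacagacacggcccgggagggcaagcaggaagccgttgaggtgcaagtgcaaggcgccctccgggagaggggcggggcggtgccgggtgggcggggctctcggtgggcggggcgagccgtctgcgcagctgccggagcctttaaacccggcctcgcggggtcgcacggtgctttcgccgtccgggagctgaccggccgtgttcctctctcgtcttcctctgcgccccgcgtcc

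The ETS core was found in 26 of the 69 members (37.7%), against 9.93% of all 27025 genes with a promoter and 19.9% of the genes tested. The NRF1 core was found in 8 of 69 (11.6%), against 3.05% of all genes and 5.96% of those tested, and the YY1 core in 8 of 69 (11.6%), against 1.64% and 3.46%. ETS cores were in 15 large and 11 small subunit genes, and NRF1 cores were in 7 large subunit genes and 1 small subunit gene. Mrpl32 had 4 matches to the NRF1 core counted over both strands, of which some overlap. A match describes the letters in this window and is not evidence of binding.

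The libraries held 27273502 to 28535653 counts each, so depth was alike, but Ctrl_sh2 stood apart from the rest. Its TMM factor, the scaling that sets libraries on a common level, was 0.711, against 1.05 to 1.09 in the others. It had 16681 genes with a count, against 19902 to 23147, and 27.2% of its counts fell in the 100 most abundant genes, against 12.6% to 12.9%. Genes of the mitochondrial genome made up 6.49% of its counts and 1.57% to 1.80% elsewhere. Whether these values have a part in the results below was not tested. Both targets were lower in every knockdown sample. Idh3a was at 79.8, 136.5 and 93.0 CPM (TMM-scaled counts relative to library size) in Ctrl_sh1, Ctrl_sh2 and Ctrl_sh3 and at 58.5, 57.9 and 55.5 CPM in SI_sh1, SI_sh2 and SI_sh3. Slc25a1 was at 103, 98.7 and 108 CPM across the controls and 68.9, 69.6 and 63.0 CPM across the knockdowns. Without Ctrl_sh2 the log2 fold changes of knockdown over control were −0.60 ± 0.08 (SE) for Idh3a and −0.66 ± 0.07 for Slc25a1, with edgeR adjusted p of 0.0142 and 0.00649. With all 6 libraries the adjusted p were 0.254 and 0.104.

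The epithelial label was checked against its markers, of which 6 of 7 passed the count filter and summed to 726 to 769 CPM in the controls and 650 to 706 CPM across the knockdowns. Nkx2-1, the lung epithelial transcription factor, was at 277 to 343 CPM and the keratin Krt8 at 232 to 300 CPM, while Sftpb, a surfactant protein, was at 0.658 to 2.49 CPM and Krt18 fell under the filter. Of 4 fibroblast markers, 3 passed, with sums of 346, 1233 and 376 CPM in the controls and 317 to 345 CPM across the knockdowns. That sum was almost wholly the proteoglycan Dcn, which reached 1211 CPM in Ctrl_sh2. Of the immune and endothelial markers, Ptprc, Lyz2, Cdh5 and Kdr fell under the filter, and the summed levels were at most 2.73 and 0.628 CPM.

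Of the 78 members, 77 passed the filter on low counts. The exception was Mrpl53, a large subunit protein found only in mitochondria, which had 0 counts in all 6 libraries. In the GENCODE M21 annotation it shares 88.0% of its exonic bases with Gm42688 on the same strand, and that row held 232 counts in all. Each count of 0 allows up to 3 counts, for counting error only, and what the counting did with shared reads is not given in the sources used here.

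On the length-corrected FPKM scale the members spanned a wide range. Mrps21, a small subunit protein with a bacterial counterpart, had the highest mean level over all 6 libraries, with 73.6, 466.6 and 125.3 FPKM in the controls and 83.3, 62.7 and 74.5 FPKM across the knockdowns. The next were Mrpl34, a conserved large subunit protein, at a mean of 100.3 FPKM, and Mrpl52, a mitochondria-specific one, at 86.4 FPKM. The lowest members with counts were Mrpl48, of the central protuberance, at 3.68 FPKM and Mrpl15, a conserved large subunit protein, at 3.81 FPKM. Without Ctrl_sh2 the means were 83.9 FPKM for Mrps21, 78.0 FPKM for Mrpl34, 48.7 FPKM for Mrpl52, 2.75 FPKM for Mrpl48 and 3.21 FPKM for Mrpl15. The order then changed below Mrpl34. Mrpl52 was in place 8, under Mrpl14 (74.2 FPKM), Mrpl10 (72.6 FPKM), Mrpl43 (71.5 FPKM), Mrpl28 (65.5 FPKM) and Mrpl2 (49.1 FPKM), and the lowest member with counts was Mrpl23 at 2.44 FPKM.

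Summed over the tested members, the large subunit genes were at 2107, 6083 and 2528 CPM in Ctrl_sh1, Ctrl_sh2 and Ctrl_sh3 and at 2289, 2004 and 2109 CPM in SI_sh1, SI_sh2 and SI_sh3. The small subunit genes were at 978, 2814 and 1162 CPM across the controls and 1065, 946 and 995.5 CPM across the knockdowns. In both sums Ctrl_sh2 was far above the other 5 libraries, Ctrl_sh1 lay inside the knockdown range, and Ctrl_sh3 lay above it. The TMM factor of Ctrl_sh2 raises its CPM relative to the others. Without that scaling, the members made up 0.335%, 0.6325% and 0.388% of counts in the controls and 0.356%, 0.318% and 0.332% in the knockdowns. The ratio of the small to the large sum was 0.464, 0.463 and 0.460 in the controls and 0.465, 0.472 and 0.472 in the knockdowns, so the ratio in Ctrl_sh2 lay between those of the other controls. In bulk samples, fewer cells of a kind and less RNA per cell cannot be told apart.

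**Figure D1:**
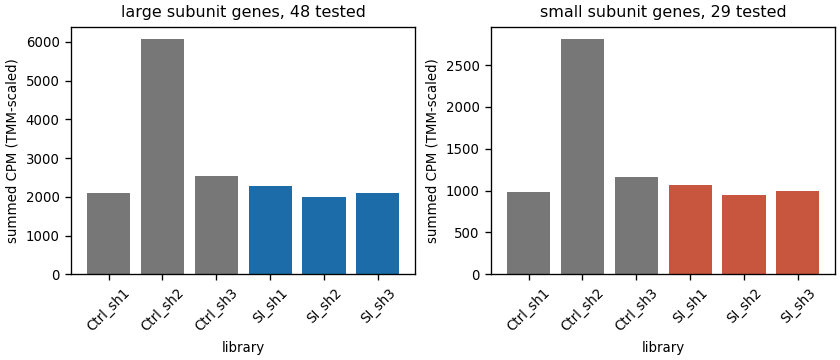
Summed CPM, scaled by TMM, of the 48 tested large subunit genes and the 29 small subunit genes in each library, with control libraries in grey and knockdown libraries in colour. Ctrl_sh2 reached 6083 and 2814 CPM, while the other libraries lay between 2004 and 2528 CPM and between 946 and 1162 CPM.

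The height of Ctrl_sh2 was shared by most members but not evenly. Ctrl_sh2 was the highest of the 6 libraries in 69 of 77 members (89.6%), against 34.4% of all genes tested. The exceptions were Mrpl9, Mrpl37, Mrpl38, Mrps2, Mrps6, Mrps26, Mrps27 and Mrps30. The median member was 2.21 times as high in Ctrl_sh2 as in the mean of Ctrl_sh1 and Ctrl_sh3, with a range of 0.841 to 7.20, and the median gene tested was at 0.967 times. The median was 2.60 for the large and 2.00 for the small subunit genes. It was 5.01 for 81 cytosolic ribosomal protein genes and 5.40 for the 12 tested mitochondrially encoded mRNAs, the templates of this ribosome.

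**Figure D2:**
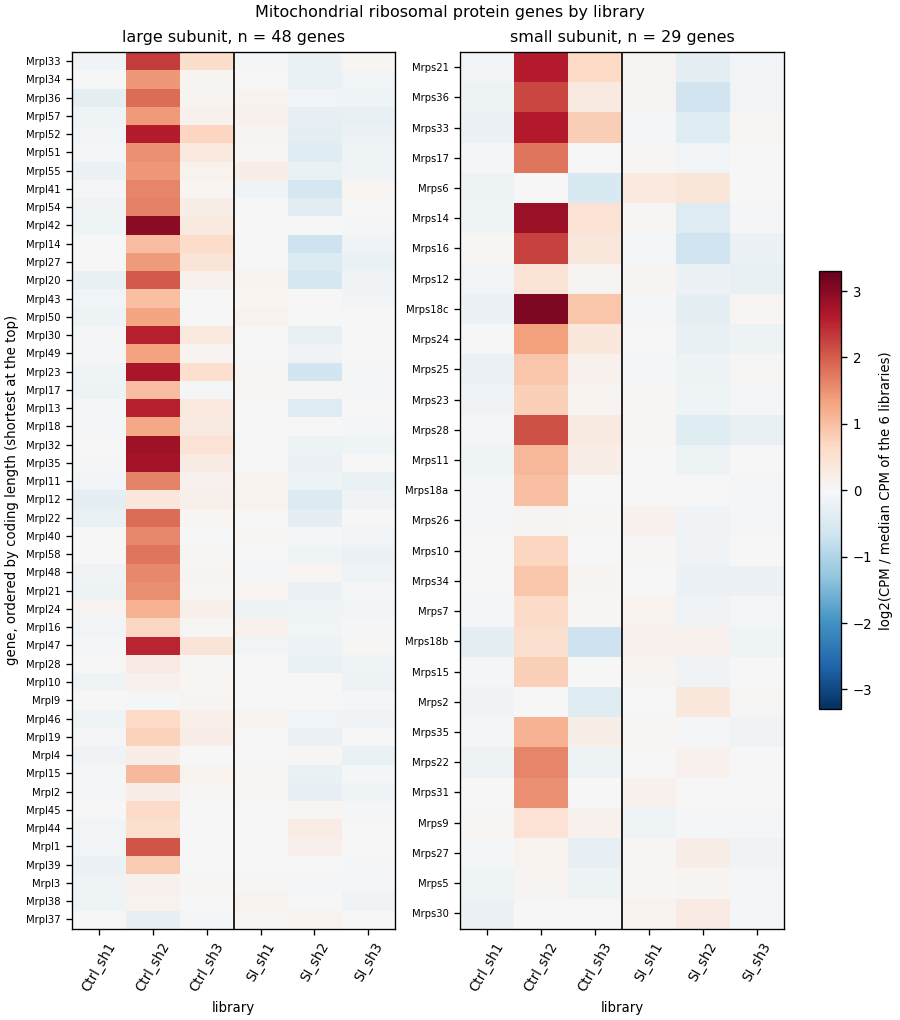
CPM of the 77 tested members in each library, as log2 of the ratio to the gene's median over the 6 libraries, with genes in rows ordered by coding length and the 2 subunits in separate panels. The Ctrl_sh2 column is red in most rows, the shortest genes at the top are mostly the reddest, and the other 5 columns are close to white in most rows.

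Knockdown was then compared with control with the quasi-likelihood test of edgeR across all genes, and a gene was called at a Benjamini-Hochberg adjusted p under 0.05. With all 6 libraries, 0 of 77 members were called, against 0.0653% of the 15307 genes tested. DESeq2 also called 0, against 3.8% of genes. At an unadjusted p under 0.05, edgeR gave 1 member higher in the knockdown, against 7.47% of genes, and 6 lower, against 6.65%. These were 1.3% and 7.79% of the members. DESeq2 at an unadjusted p gave 1 higher, against 7.16% of genes, and 22 lower (28.6% of the members), against 10.5%. Without Ctrl_sh2 edgeR again called 0 of 77, against 1.79% of 15709 genes. At an unadjusted p it then gave 3 members higher, against 9.54% of genes, and 7 lower, against 10.3%. These were 3.9% and 9.09% of the members. DESeq2 without Ctrl_sh2 gave 3 higher, against 9.37% of genes, and 5 lower (6.49% of the members), against 8.32%.

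With all 6 libraries the median log2 fold change was −0.63 over the 77 members, of which 8 were above 0, and −0.01 over all genes tested. Without Ctrl_sh2 it was −0.09, with 20 members above 0, and −0.01 over the same genes. The large subunit genes had a median of −0.74 with all libraries and −0.11 without Ctrl_sh2. The small subunit genes had medians of −0.42 and −0.05. The small subunit median thus lay 0.32 above the large one with all libraries and 0.06 above it without Ctrl_sh2. Between the 3 knockdown libraries, the small minus large difference of median log2 CPM had an SD of 0.0530. That SD holds no spread of the controls, which the fold changes also use. With Mrps18a and Mrps30 counted in the large subunit and Mrps36 left out, the difference of the median fold changes with all libraries was 0.23.

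**Figure D3:**
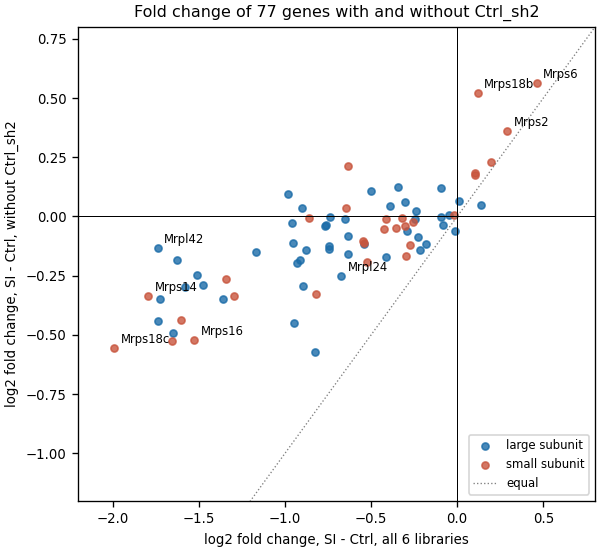
Log2 fold change of knockdown over control for the 77 tested members, from all 6 libraries on the horizontal axis and without Ctrl_sh2 on the vertical axis, with large subunit genes in blue, small subunit genes in red and the dotted line where both are equal. Nearly all points lie above the line and most are near 0 on the vertical axis, while the horizontal axis reaches −1.99 at Mrps18c.

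The 6 members with the lowest fold change were Mrps18c, Mrps14, Mrpl42, Mrpl23, Mrpl32 and Mrps33. Mrps18c, the small subunit paralogue that is the counterpart of bacterial S18, was at 16.1, 156.9 and 34.7 CPM across the controls and 17.6, 15.0 and 19.4 CPM across the knockdowns. Its log2 fold change was −1.99 ± 0.81 with all libraries (edgeR adjusted p = 0.352) and −0.56 ± 0.27 without Ctrl_sh2 (adjusted p = 0.288). Ctrl_sh1 lay within the knockdown values, so the groups overlapped. Mrps18c shares 23.2% of its exonic bases with Gm43511 on the same strand, which had 202 counts in all.

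Mrps14, a conserved small subunit protein, was at 27.9, 224.6 and 43.1 CPM across the controls and 31.8, 23.1 and 30.1 CPM across the knockdowns. Mrpl42, a mitochondria-specific large subunit protein, was at 34.9, 299.2 and 48.3 CPM against 39.1, 38.0 and 37.2 CPM. It had the highest ratio of Ctrl_sh2 to the other controls, 7.20, and its log2 fold change moved from −1.74 to −0.13 when that library was left out. Mrpl23 of the polypeptide exit was at 10.8, 76.5 and 17.4 CPM against 12.3, 7.58 and 11.4 CPM, and Mrpl32, which is matured by a mitochondrial protease before assembly, was at 22.1, 155.6 and 31.1 CPM against 22.8, 19.8 and 20.4 CPM. Mrps33, a mitochondria-specific small subunit protein, was at 25.5, 176.8 and 51.3 CPM against 27.9, 22.1 and 30.3 CPM. In 5 of these 6 genes Ctrl_sh1 lay within the range of the knockdown libraries, and in Mrpl42 it lay below all of them.

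The 6 members with the highest fold change were Mrps6, Mrps2, Mrps30, Mrpl37, Mrps18b and Mrps27. Mrps6, a conserved small subunit protein, was at 9.17, 10.2 and 7.22 CPM across the controls and 12.8, 13.4 and 10.3 CPM across the knockdowns. All knockdown libraries were above all controls, with the lowest knockdown close to Ctrl_sh2. Its log2 fold change was 0.46 ± 0.18 with all libraries (edgeR adjusted p = 0.352) and 0.56 ± 0.16 without Ctrl_sh2 (adjusted p = 0.124). Mrps6 shares 10.4% of its exonic bases with Slc5a3 on the same strand, whose log2 fold change without Ctrl_sh2 was 0.12 ± 0.13. It also shares 19.9% with the protein-coding gene Gm49711 on the same strand, which had 2 counts in all.

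Mrps2, also a conserved small subunit protein, was at 21.3, 22.9 and 17.5 CPM against 23.0, 28.9 and 23.4 CPM. The groups did not overlap, though SI_sh1 and Ctrl_sh2 were nearly equal. Mrps30, a large subunit protein despite its name, was at 22.7, 26.5 and 25.8 CPM against 28.4, 31.7 and 25.7 CPM, and Mrpl37, a mitochondria-specific large subunit protein, was at 58.5, 48.4 and 56.5 CPM against 59.6, 62.7 and 57.6 CPM. Mrps27, a small subunit protein with repeats of the RNA-binding pentatricopeptide kind, was at 19.2, 21.2 and 16.1 CPM against 19.9, 22.8 and 17.8 CPM. These 3 genes overlapped between the groups, and Mrps27 was at −0.0132 on the log2 scale without Ctrl_sh3.

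The 3 paralogues of bacterial S18 had unlike values. Mrps18a, of the large subunit, was at 39.9, 81.6 and 41.6 CPM across the controls and 41.2, 41.3 and 39.8 CPM across the knockdowns, so that only Ctrl_sh2 differed from the rest. Mrps18b, of the small subunit, was at 10.3, 18.2 and 7.84 CPM against 13.9, 13.9 and 11.6 CPM. Its log2 fold change was 0.12 ± 0.31 with all libraries and 0.52 ± 0.15 without Ctrl_sh2 (edgeR adjusted p = 0.130), where all knockdowns lay above both controls. With Ctrl_sh3 left out in place of Ctrl_sh2 it was −0.13. Of its exonic bases, 30.5% lie opposite the antisense gene Gm16279, and the use of strand in the counting is not given in the sources used here. Without Ctrl_sh2 the log2 fold changes of Mrps18a, Mrps18b and Mrps18c were thus −0.01, 0.52 and −0.56. Differences between the paralogues were not tested.

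**Figure D4:**
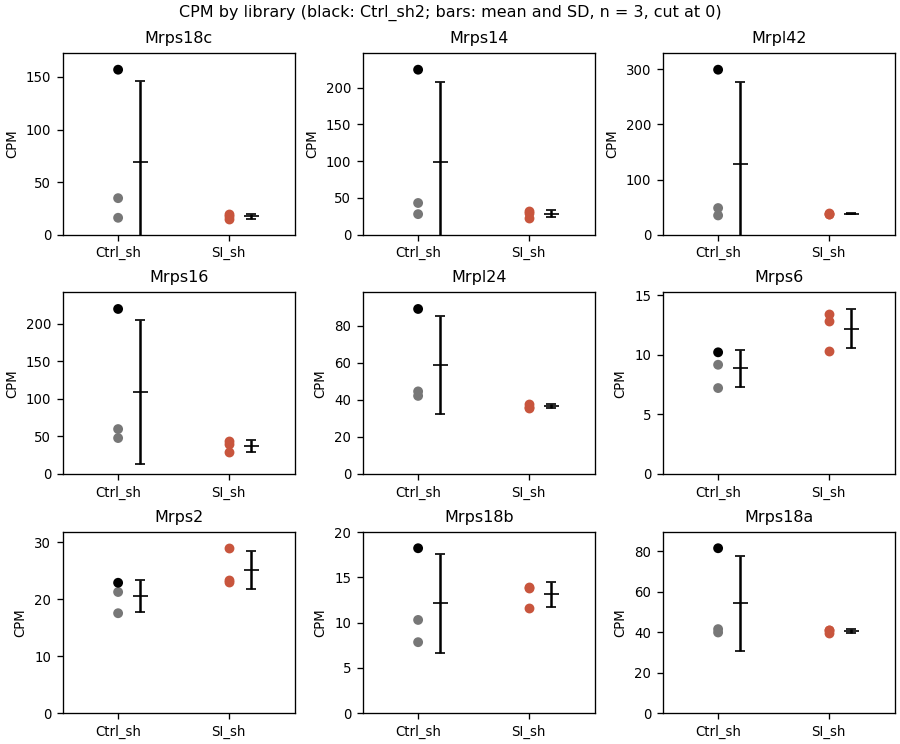
CPM by library for 9 members with the group means and SD (n = 3 each), with Ctrl_sh2 in black, the other controls in grey, knockdowns in red and SD bars cut at 0. In Mrps18c, Mrps14, Mrpl42 and Mrps16 the black point is at 156.9 to 299.2 CPM and the remaining libraries are below 60 CPM, while Mrps6 and Mrps2 have every knockdown point above the controls.

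With all 6 libraries, 4 members had every knockdown value below every control value, against 10.7% of genes tested, and 2 had every knockdown value above, against 14.7%. The lower members were Mrpl24, Mrps9, Mrps16 and Mrps34 (Mrpl24 of the large subunit, the others of the small), and the higher were Mrps2 and Mrps6. Without Ctrl_sh2 the same 4 were lower, against 17.5% of genes, and 8 were higher, against 20.4%. The 8 were Mrpl1, Mrpl17, Mrpl44, Mrps2, Mrps5, Mrps6, Mrps18b and Mrps22. These counts were 5.19% and 10.4% of the members. In Mrps22, a mitochondria-specific small subunit protein chosen after its values were seen, Ctrl_sh2 turned the sign. It was at 15.9, 55.1 and 16.1 CPM across the controls and 17.9, 19.8 and 18.2 CPM across the knockdowns, with a log2 fold change of −0.63 ± 0.50 with all libraries and 0.21 ± 0.10 without Ctrl_sh2.

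Mrps16, a conserved small subunit protein, was at 47.7, 219.5 and 59.7 CPM across the controls and 43.9, 28.9 and 40.3 CPM across the knockdowns, and was lower in all knockdowns. The log2 fold change was −1.53 ± 0.60 with all libraries (edgeR adjusted p = 0.352) and −0.52 ± 0.17 without Ctrl_sh2 (adjusted p = 0.153). Mrpl24, of the polypeptide exit, was at 42.1, 89.0 and 44.5 CPM against 35.8, 36.2 and 37.8 CPM, a log2 fold change of −0.25 ± 0.07 without Ctrl_sh2 (adjusted p = 0.134). Its exonic bases overlap those of Rrnad1 on the other strand by 26.3%. Mrps34, a mitochondria-specific small subunit protein, was at 20.5, 38.2 and 21.6 CPM against 20.0, 17.7 and 17.8 CPM, with 63.4% of its exonic bases opposite Mapk8ip3 and 37.0% shared with Nme3, which had 0 counts. Mrps16, Mrpl24 and Mrps34 were chosen after their values were seen.

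Fits that count Ctrl_sh2 less or leave it out under another tool called a few members. DESeq2 without Ctrl_sh2 called 2 higher, against 4.74% of genes, and 1 lower, against 3.35%. The higher were Mrps6 (log2 fold change 0.57, DESeq2 adjusted p = 0.0326) and Mrps18b (0.52, DESeq2 adjusted p = 0.0397), the latter with a sign that turned in edgeR without Ctrl_sh3, and the lower was Mrps16 (−0.52, DESeq2 adjusted p = 0.0393). Limma voom with sample quality weights, which gave Ctrl_sh2 a weight of 0.101 against 0.621 to 3.19 for the others, called 3 higher, against 8.67% of genes, and 2 lower, against 6.34%. The higher were Mrps6, Mrps18b and Mrps2 (0.67, 0.65 and 0.40, limma adjusted p = 0.0231, 0.0258 and 0.0413), and the lower were the conserved large subunit proteins Mrpl14 and Mrpl27 (−0.67 and −0.53, limma adjusted p = 0.0429 and 0.0467). Mrpl27 sits near the catalytic centre of the ribosome, and both were named after their values were seen. Mrpl14 was at 67.8, 139.4 and 105.9 CPM across the controls and 70.2, 42.9 and 63.2 CPM across the knockdowns, with Ctrl_sh1 between knockdown values. At an adjusted p the shares of members called lay below those of all genes in both fits. At an unadjusted p, limma voom with quality weights gave 4 members higher (5.19%), against 18.2% of genes, and 18 lower (23.4%), against 16.6%.

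By origin, the median log2 fold change of the 30 conserved large subunit genes was −0.74 with all libraries, all 30 below 0, and of −0.14 without Ctrl_sh2, with 25 below 0. For the 20 tested mitochondria-specific large subunit genes, which include Mrps18a and Mrps30, the medians were −0.57 and −0.04. The 16 conserved small subunit genes had medians of −0.43 and −0.12, and the 10 mitochondria-specific ones −0.48 and −0.02. Mrps18a and Mrps18b were listed as mitochondria-specific, though they are paralogues of bacterial S18. By place, the medians without Ctrl_sh2 were −0.09 for the 3 stalk proteins Mrpl10, Mrpl11 and Mrpl12, which recruit translation factors. They were −0.14 for the 6 proteins of the polypeptide exit and −0.05 for the 6 of the central protuberance. With all libraries the medians of the stalk, the exit and the central protuberance were −0.23, −0.82 and −0.70. All these medians were closer to 0 without Ctrl_sh2.

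Coding length, which the choice of members did not use, went with the height of Ctrl_sh2. The relation was looked for after the values were seen. The longest coding sequence of each member in GENCODE M21 was 195 bases (Mrpl33) to 1326 bases (Mrps30), with a median of 582 bases against 1404 bases over the 12566 tested genes with one. Over the 77 members, the Spearman correlation of coding length with the log2 ratio of Ctrl_sh2 to the other controls was −0.59. It was −0.57 within the large and −0.60 within the small subunit genes, and −0.35 over the 12566 genes. Transcript length and GC content were also examined, and gave −0.29 and −0.33 over the members and −0.33 and −0.28 over the genes tested. The points share libraries, and members are not independent of each other. The median ratio was 3.26 in the 26 shortest members (195 to 498 bases), 2.21 in the 25 of middle length (501 to 753 bases) and 1.41 in the 26 longest (756 to 1326 bases). Over all genes tested it was 2.24 up to 498 bases (1063 genes), 1.20 up to 753 bases (1426 genes) and 0.930 above (10077 genes).

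Coding length was also compared with the fold change without Ctrl_sh2. That fold change still holds Ctrl_sh3, which moved with Ctrl_sh2: the Spearman correlation of the log2 ratio of Ctrl_sh2 to the other controls with that of Ctrl_sh3 to Ctrl_sh1 was 0.58 over the members and 0.17 over all genes tested. The Spearman correlation of coding length with the log2 fold change of knockdown over Ctrl_sh1 and Ctrl_sh3 was 0.54 over the members and 0.20 over all genes. It was 0.34 and 0.19 for transcript length, and 0.005 and 0.044 for GC content. The median log2 fold change was −0.19 in the shortest members, with 4 of 26 above 0, −0.09 in those of middle length, with 3 of 25 above 0, and 0.00 in the longest, with 13 of 26 above 0. The medians for all genes of the same lengths were −0.18, −0.08 and 0.01. Without Ctrl_sh2, short members and short genes at large thus had near-equal medians. Mrps6, with 375 bases, was the short member farthest from this order. With all 6 libraries the medians of the short, middle and long members were −0.92, −0.68 and −0.20. Those of all genes of the same lengths were −0.64, −0.18 and 0.04.

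**Figure D5:**
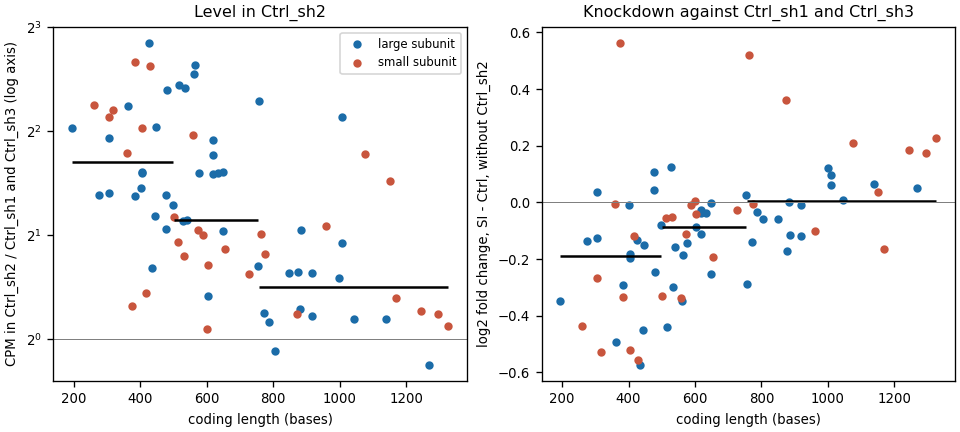
Coding length in bases against the ratio of Ctrl_sh2 to the mean of Ctrl_sh1 and Ctrl_sh3 on a log axis (left) and against the log2 fold change of knockdown over control without Ctrl_sh2 (right), for the 77 tested members, with black lines at the medians of the shortest, middle and longest members. The ratio falls from a median of 3.26 to 1.41 and the fold change goes from −0.19 to 0.00 as length grows.

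Of the proteins of the mitochondrial ribosome that carry other names, 5 were examined. Chchd1, a small protein of the small subunit, was at 74.5, 955.2 and 164.2 CPM across the controls and 80.8, 52.0 and 76.9 CPM across the knockdowns. Its log2 fold change was −2.51 ± 0.93 with all libraries (edgeR adjusted p = 0.347) and −0.78 ± 0.29 without Ctrl_sh2 (adjusted p = 0.194), and DESeq2 called it lower with all libraries (adjusted p = 0.0493). Dap3, a GTP-binding small subunit protein, was nearly constant at 69.7 to 73.9 CPM over all 6 libraries. Ptcd3, a pentatricopeptide protein of the small subunit, was at 63.0, 65.7 and 63.6 CPM against 74.3, 72.0 and 70.4 CPM, above in every knockdown, with a log2 fold change of 0.18 ± 0.07 without Ctrl_sh2 (edgeR adjusted p = 0.183). Limma voom with quality weights called Ptcd3 higher (0.19, limma adjusted p = 0.0408). Aurkaip1 of the small subunit was below in every knockdown, with a log2 fold change of −0.22 ± 0.08 without Ctrl_sh2 (adjusted p = 0.194), and Gadd45gip1, also known as CRIF1 and placed in the large subunit near the exit, was at −0.16 ± 0.10.

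Of 15 mitochondrial translation factors and 18 factors of ribosome assembly, edgeR called 0 in either fit. DESeq2 called 2 and 1 of them higher with all libraries and 2 of each higher without Ctrl_sh2, and 0 lower in either fit. Over all genes DESeq2 called 3.8% in either direction with all libraries and 4.74% higher without Ctrl_sh2. Limma voom with quality weights called 3 translation factors and 2 assembly factors higher, against 8.67% of genes. It called 0 translation factors and 2 assembly factors lower, against 6.34%. The medians of the 2 lists were −0.07 and −0.13 with all libraries and −0.04 and 0.04 without Ctrl_sh2. At an unadjusted p in edgeR, 2 translation factors were higher in both fits, and 1 assembly factor was higher with all libraries and 3 without Ctrl_sh2, against 7.47% and 9.54% of all genes. With all libraries 1 translation factor (Slirp) and 1 assembly factor (Mtg1) were lower at an unadjusted p, and without Ctrl_sh2 0 translation factors and 1 assembly factor (Rbfa) were, against 6.65% and 10.3%. Gfm1, the elongation factor that moves the ribosome along the mRNA, was at 56.4, 47.0 and 50.9 CPM against 71.4, 67.3 and 66.8 CPM. This was a log2 fold change of 0.34 ± 0.08 without Ctrl_sh2 (edgeR adjusted p = 0.0712). DESeq2 called Gfm1 higher with all libraries (DESeq2 adjusted p = 0.0214) and without Ctrl_sh2 (DESeq2 adjusted p = 0.00469). Limma voom with quality weights also called it higher (limma adjusted p = 0.00678). Lrpprc, which stabilises mitochondrial mRNAs, was at 62.4, 58.7 and 63.5 CPM against 73.8, 75.8 and 73.7 CPM, and its partner Slirp was at 2.33, 27.4 and 8.37 CPM against 3.29, 1.15 and 2.97 CPM. Of the assembly factors, Noa1, a GTPase for the small subunit, was at 29.5, 28.95 and 25.8 CPM against 37.7, 36.9 and 35.2 CPM (log2 fold change 0.39 ± 0.09 without Ctrl_sh2, edgeR adjusted p = 0.0745). With all 6 libraries the groups did not overlap, with the knockdown higher, in 3 translation factors (Gfm1, Lrpprc and Taco1) and 2 assembly factors (Noa1 and Dhx30), against 14.7% of genes tested. They did not overlap, with the knockdown lower, in 1 of each (Mrrf and Mtg1), against 10.7%. Without Ctrl_sh2 the same 3 translation factors were higher and the same 1 lower. Of the assembly factors 6 were then higher (Noa1, Dhx30, Mterf4, Nsun4, Mettl17 and Fastkd2), against 20.4% of genes, and 2 lower (Mtg1 and Rbfa), against 17.5%. The genes given with values in this paragraph and the next were chosen after their values were seen.

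Of 9 regulators of mitochondrial biogenesis, edgeR called 2 higher without Ctrl_sh2, against 1.79% of all genes in either direction, and 0 with all libraries, against 0.0653%. With all libraries 2 were higher at an unadjusted p in edgeR, against 7.47%, and DESeq2 called 2 higher, against 3.8% in either direction. None was lower in these fits. Pprc1, a coactivator related to PGC-1 that works with NRF1, rose from 113.9 and 102.2 CPM in Ctrl_sh1 and Ctrl_sh3 to 161.3, 189.9 and 165.4 CPM, and Ctrl_sh2 was at 78.8 CPM. Its log2 fold change was 0.66 ± 0.09 without Ctrl_sh2 (edgeR adjusted p = 0.0155) and 0.81 ± 0.15 with it (adjusted p = 0.180). Myc, a transcription factor known for promoting ribosome and mitochondrial biogenesis, rose from 66.4 and 65.8 CPM to 99.7, 117.2 and 93.5 CPM, with Ctrl_sh2 at 62.4 CPM and a log2 fold change of 0.64 ± 0.10 without that library (edgeR adjusted p = 0.0211). With all 6 libraries the adjusted p for Myc was 0.144. Nrf1, Gabpa and Yy1, whose cores were searched for above, were at −0.04 to 0.18 without Ctrl_sh2 and none was called. Members with an ETS core had a median log2 fold change of −0.11 without Ctrl_sh2, those with a promoter but no ETS core −0.06. For the NRF1 core the medians were −0.03 and −0.08, and for the YY1 core both were −0.06.

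Of the mitochondrial genome's 12 tested mRNAs, edgeR called 0 in either fit, with 1 lower at an unadjusted p in each, against 6.65% and 10.3% of all genes. DESeq2 called 0 with all libraries, where 6 were lower at an unadjusted p against 10.5% of genes, and 1 lower without Ctrl_sh2, against 3.35%. They had a median log2 fold change of −1.35 with all libraries and 0.04 without Ctrl_sh2, where 7 were above 0. The 2 mitochondrial rRNAs, the RNA part of this ribosome, summed to 471, 6558 and 958 CPM in the controls and to 511, 700.5 and 624 CPM across the knockdowns. Among the mRNAs, mt-Co1, the core subunit of cytochrome c oxidase, was at 6547, 36630 and 7072 CPM against 5808, 5203 and 5950 CPM, below in every knockdown (log2 fold change −0.28 ± 0.07 without Ctrl_sh2, edgeR adjusted p = 0.105). It was chosen after its values were seen, and was the 1 mRNA with every knockdown below every control. That is 1 of 12, against 10.7% of genes tested with all libraries and 17.5% without Ctrl_sh2. Without Ctrl_sh2, 2 of the 12 had every knockdown above both controls, against 20.4% of genes. With all libraries 0 of the 12 were above every control, against 14.7%.

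For the cytosolic ribosomal protein genes, the nearest family by function, the median log2 fold change was −1.61 with all libraries and −0.36 without Ctrl_sh2. EdgeR called 0 of 81 in both fits, and DESeq2 called 11 lower with all libraries, against 3.8% of genes in either direction, and 2 lower without Ctrl_sh2, against 3.35%. At an unadjusted p in edgeR, 30 of them were lower with all libraries, against 6.65% of all genes, and 44 without Ctrl_sh2, against 10.3%. Of the 77 members 6 and 7 were lower in those fits. DESeq2 gave 64 cytosolic genes and 22 members lower with all libraries, against 10.5% of genes, and 21 and 5 without Ctrl_sh2, against 8.32%. Limma voom with quality weights gave 44 and 18 lower, against 16.6%. The summed level of the cytosolic genes was 33920, 204500 and 48210 CPM in the controls and 34700, 25870 and 32810 CPM across the knockdowns, with Ctrl_sh1 again inside the knockdown range. The difference between the 2 families was not tested.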

How the data were processed

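RNA-seq of the 6 MLE12 samples was analysed, grouped by the sample labels. The authors deposited whole-number counts per gene, not normalized, and FPKM values, which use a library size of 0.716 (Ctrl_sh2) to 1.08 times the total count. The submitters' processing notes name HISAT2 2.0.5, StringTie 1.3.3b, featureCounts 1.5.0-p3 and mm10. Gene lengths are as deposited.

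Counts were filtered with filterByExpr, scaled by TMM and tested over all genes with edgeR 4.0.16 (R 4.3.3), and p-values were adjusted by Benjamini-Hochberg with a threshold of 0.05. CPM use the TMM factors. The SE of an edgeR fold change was derived from the test, as its absolute value divided by the square root of the F statistic. DESeq2 1.42.0 and limma 3.58.1 (FPKM with pseudocounts of 1 and 0.1, and voom with quality weights) were alternatives. A test for these counts is not given in the sources used here. Of the 78 members, 73 had the start and end of GENCODE M21 (GRCm38). No pair of replicates agreed within sampling noise (chi-square per degree of freedom 4.39 to 334). The scripts were tested on simulated counts drawn from mean levels common to all libraries, so the differing composition of Ctrl_sh2 was not simulated. The limits for passing were set only for the runs without Ctrl_sh2.

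Named genes were the targets, every member called by edgeR, the 6 highest and 6 lowest fold changes, the 3 highest and 3 lowest mean FPKM, Mrps18a, Mrps18b, Mrps18c, Mrps36 and 5 ribosomal proteins with other names. Genes named outside this rule were chosen after their values were seen. The members and lists were chosen with earlier results of these data known.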

Additional observations from a re-analysis of the deposited data

How the results depend on the processing

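No member was called by edgeR under median-of-ratios size factors, under library size alone, on protein-coding genes alone, with the count filter removed or raised to 10 in each library, or with any 1 library left out, and none by limma on FPKM with either pseudocount or by DESeq2 with all libraries. At an adjusted p, calls appeared in DESeq2 without Ctrl_sh2 (2 higher, 1 lower) and in limma voom with quality weights (3 higher, 2 lower). At an unadjusted p with all libraries, edgeR gave 1 higher and 6 lower and DESeq2 1 higher and 22 lower. The median log2 fold changes of the large and small subunit genes and their difference were −0.42, −0.16 and 0.26 with library size only, where the median of all genes moved to 0.16. They were −0.53, −0.31 and 0.21 in limma on log2(FPKM + 1), and −0.55, −0.35 and 0.205 on log2(FPKM + 0.1). They were −0.11, −0.0458 and 0.0629 in DESeq2 without Ctrl_sh2, and −0.14, −0.0929 and 0.0457 in limma voom with quality weights. By place in the ribosome the difference was 0.23. Leaving out 1 library each gave −0.998 to −0.11 for the large subunit, −0.63 to −0.0504 for the small subunit and 0.0629 to 0.37 for their difference, with the values nearest 0 all without Ctrl_sh2.

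With the replicate number as a block, 0 members were called, and the medians were −0.55 and −0.35 with a difference of 0.20. The samples share only a number, since deviations of same-numbered samples correlated at −0.147, −0.0796 and 0.0475. Leave-one-out log2 fold changes were −0.0132 to 0.19 for Mrps27, −0.13 to 0.52 for Mrps18b and −0.0186 to 0.028 for Dap3. Without Ctrl_sh3 these 3 were negative, and Dap3 was also negative, at −0.0148, without SI_sh2. Dap3 was also at −0.0029 with median-of-ratios size factors, −0.0044 with protein-coding genes only and −0.0021 in DESeq2, all near 0. The causes were not tested. The 3 samples per group and the spread that Ctrl_sh2 adds (biological coefficient of variation 0.263 with it, 0.102 without) limit the smallest change that could be called.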

Other observations

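Rows annotated as pseudogenes of the members were not counted among them. Mrpl48-ps had 110, 207 and 151 counts in Ctrl_sh1, Ctrl_sh2 and Ctrl_sh3 and 126, 79 and 103 counts in SI_sh1, SI_sh2 and SI_sh3. Mrpl23-ps1 had 0, 25 and 9 counts in the controls and 7, 2 and 8 counts in the knockdowns. How reads of near-identical copies were assigned is not given in the sources used here, so the values of Mrpl48, Mrpl23 and Mrps36 are uncertain to that extent. Of the 78 members, 33 share exonic bases with another annotated gene and 3 share over 50% of them.

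Sftpc, the surfactant protein that marks alveolar type 2 cells, was at 44.1, 97.3 and 50.9 CPM across the controls and 35.9, 28.5 and 27.2 CPM across the knockdowns, and fell by 0.65 ± 0.12 on the log2 scale without Ctrl_sh2 (edgeR adjusted p = 0.0438; 0.315 with all libraries). Of the other epithelial markers, Nkx2-1 was at 342.9, 323.8 and 341.5 CPM across the controls and 302.1, 298.9 and 277.4 CPM across the knockdowns. Its adjusted p without Ctrl_sh2 was 0.128 in edgeR and 0.0232 in DESeq2. Epcam was also below in every knockdown and Cdh1 above in every knockdown, at log2 fold changes of −0.40 and 0.10 without Ctrl_sh2 (edgeR adjusted p = 0.320 and 0.478), while Krt8 and Sftpb overlapped between the groups. Mrps36, the adaptor of the 2-oxoglutarate dehydrogenase complex that carries a ribosomal name, was at 26.4, 137.9 and 36.6 CPM across the controls and 31.5, 19.3 and 28.2 CPM across the knockdowns, with groups that overlapped.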
